A study of Mus musculus with 2 samples.

Results

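The 10 genes described here are the members of 5 glycolytic isozyme pairs: the hexokinases Hk1 and Hk2, the phosphofructokinase subunits Pfkm and Pfkp, the aldolases Aldoa and Aldoc, the enolases Eno1 and Eno2, and the lactate dehydrogenase subunits Ldha and Ldhb. They were chosen by gene symbol, 10 of the 32285 features listed in each count table. The question was how the 2 members of each pair divide the transcripts of their step among the cell types of the brain. The symbol Aldoa on its own belongs in these tables to a gene model (ENSMUSG00000114515, chromosome 7, 126800790 to 126809108, mm10) with 9 UMIs in library 1 and 9 in library 2. Aldolase A itself (ENSMUSG00000030695) is listed with its identifier attached to the symbol and held 14068 and 11697 UMIs. Every value for Aldoa below is of the latter.

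Glycolysis splits glucose into pyruvate, and several of its steps can be carried out by more than 1 gene product. Hexokinase traps glucose in the cell and phosphofructokinase commits it to the pathway, while aldolase and enolase act further down. Lactate dehydrogenase converts pyruvate and lactate into each other, and its tetramers are built from A subunits, encoded by Ldha, and B subunits, encoded by Ldhb. Aldolase C is a known astrocyte gene of the forebrain, neuron-specific enolase (Eno2) a known gene of mature neurons, and hexokinase 2 the hexokinase known for insulin-sensitive tissues and activated cells.

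The cells came from the brains of C57BL/J mice (strain as labelled) at postnatal day 10, an age at which neurons and glia are still being produced. Both libraries belong to 1 group with no treatment, genotype or control arm, so all comparisons are between cell types. The series speaks of 6 mice and ties none of them to a library. Each library is a Chromium 3' v3 preparation of a fresh suspension, in which each captured messenger RNA molecule is marked by a unique molecular identifier (UMI) and counted once, so a count does not grow with the length of the transcript. Capture of 2 different transcripts may still differ, and a share of UMIs is therefore compared between cell types rather than read as a ratio of proteins.

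Library 1 summed to 51452085 UMIs over 12978 barcodes and library 2 to 45532691 over 19508, and 90 barcode sequences were common to both. After limits on genes and mitochondrial UMIs and removal of doublets, 11992 and 14068 cells remained, of which 11915 and 8908 fell into 15 cell classes named from marker lists. A name such as astrocyte-like means that the cluster carried those markers, and none of the 10 members or their pathway genes were used for clustering. The class sizes differed between the libraries, with 89 and 1748 microglia-like cells and 343 and 26 differentiating oligodendrocyte-like cells. The microglia-like cluster had the stress gene Gdf15 and the chemokine genes Ccl4 and Cxcl10 beside Cx3cr1 at its head, and the main pericyte-like cluster was led by Acta2 and Tagln, genes of smooth muscle. Fibroblast-like cells numbered 56 and 8 and are given below by their values alone. A level is given as CPM, the UMIs of a gene divided by all UMIs of the cells of 1 class in 1 library and scaled to 1000000 UMIs. Fewer transcripts per cell and fewer expressing cells cannot be told apart in such a sum.

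Classes were compared over the 2 libraries by edgeR's quasi-likelihood test, with Benjamini-Hochberg adjustment over all genes tested and the library as a block. A gene was called when the adjusted p was under 0.05, the log2 fold change was at least 1 in size and both libraries had the same sign. All 10 members passed the filter on low counts in both fits, of 12680 and 13492 genes tested. In the comparisons of 1 class with the mean of the other 9, the mean is taken over log levels, with every class weighted equally. Nothing states that the libraries came from separate animals, so the p-values measure only the spread between the libraries, which may be technical.

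Across those comparisons, 8 of the members had UMIs in every class. For these, 35 of 80 tests were called, 16 higher and 19 lower, or 43.75%, against 21.4% of the tests over all genes tested. Here and below, shares of all genes leave out the clustering genes and markers, which were not tested. Those genes were picked as variable between cells or typical of classes, and the members were exempt from that selection. Such a share can therefore be lower than one over every gene, and the members are not read as enriched. With all 10 members the count was 41 of 100. Hk2 had no UMI in inhibitory neuron-like cells and Eno2 none in endothelial-like cells, which leaves a mean over the others poorly defined. For these genes the class at 0 was left out of the mean below, an alternative chosen after seeing the data.

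**Figure D1:**
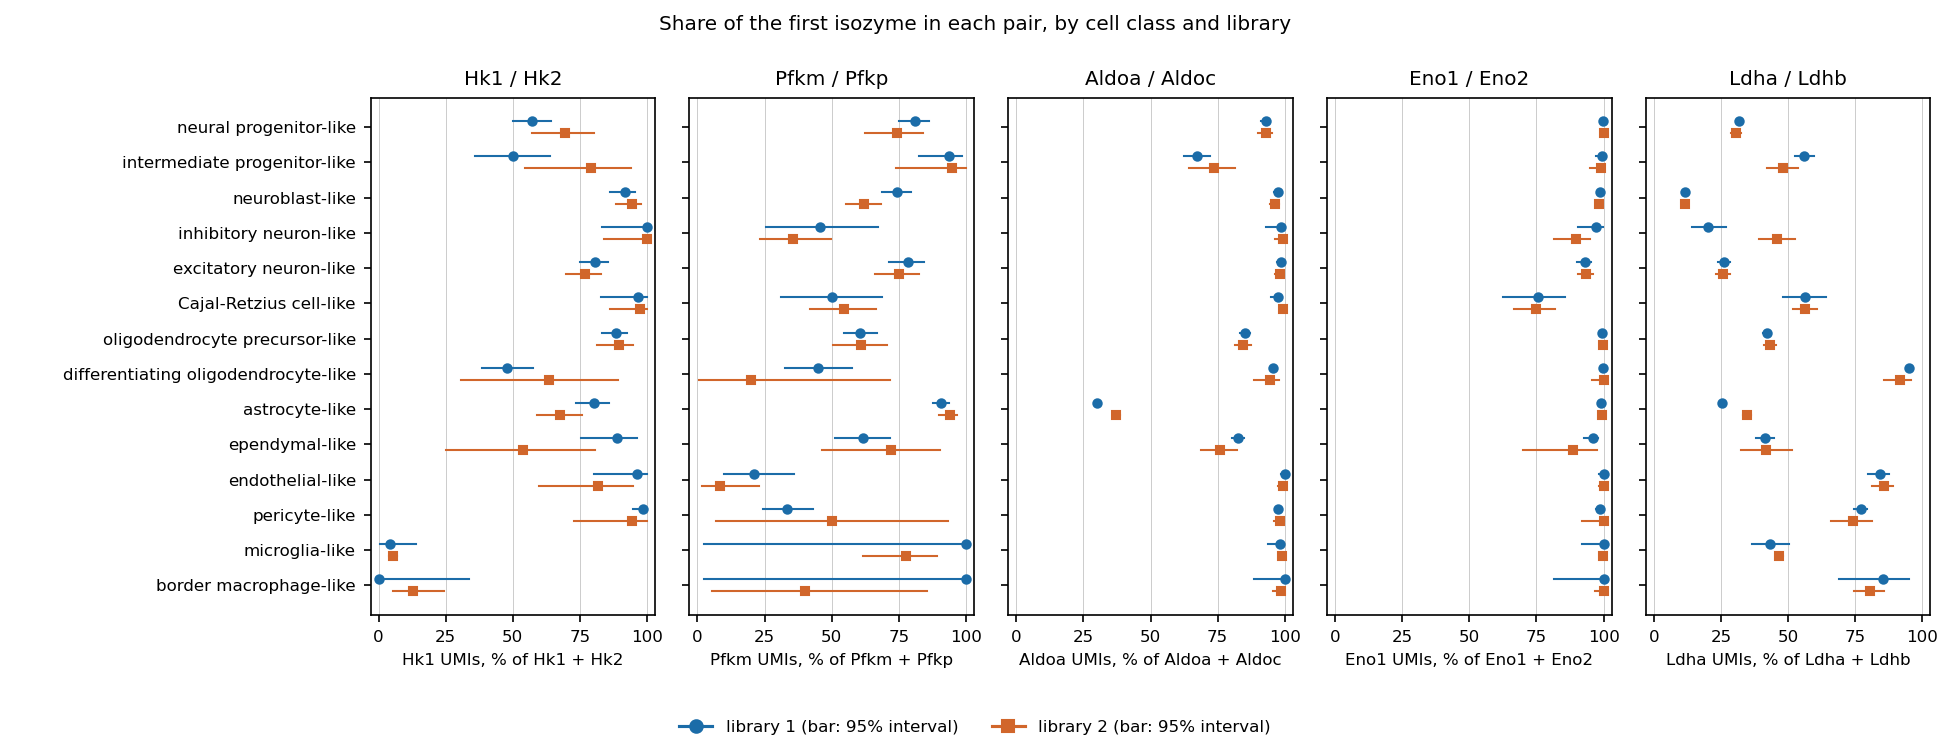
Share of the UMIs of each pair that came from the first-named gene (horizontal axes, percent), for 14 cell classes in library 1 (circles) and library 2 (squares), with exact 95% intervals as bars. The Aldoa share falls to 30.1% and 37.2% in astrocyte-like cells only, the Hk1 share lies below 15% only in microglia-like and border macrophage-like cells, and the Ldha share runs from 11.5% in neuroblast-like to over 91% in differentiating oligodendrocyte-like cells.

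The lactate dehydrogenase pair was spread over nearly the whole range of shares. Ldha (ENSMUSG00000063229) lies on chromosome 7 from 46841475 to 46855627 on the plus strand, and Ldhb (ENSMUSG00000030246) on chromosome 6 from 142490249 to 142507957 on the minus strand, in mm10 with the gene bounds of GENCODE release M21. The share of Ldha among the UMIs of both was 94.9% (95% exact Clopper-Pearson interval 93.9 to 95.8) and 91.6% (85.8 to 95.6) in differentiating oligodendrocyte-like cells of libraries 1 and 2. It was 84.0% and 85.5% in endothelial-like cells, 85.3% and 80.6% in border macrophage-like cells and 77.0% and 74.1% in pericyte-like cells. These 4 classes, with fibroblast-like cells at 67.5% and 68.2%, formed the upper end. At the lower end stood neuroblast-like cells with 11.5% in library 1 (10.4 to 12.6) and 11.5% in library 2 (10.4 to 12.7). The intervals and all that follow cover counting error only.

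Between these ends the order was Cajal-Retzius cell-like (56.1% and 56.3%), intermediate progenitor-like (56.1% and 48.0%), microglia-like (43.4% and 46.7%), oligodendrocyte precursor-like (42.2% and 43.2%) and ependymal-like (41.4% and 41.7%). Neural progenitor-like cells had 31.8% and 30.5%, astrocyte-like cells 25.5% and 34.7% and excitatory neuron-like cells 26.1% and 25.7%. Inhibitory neuron-like cells stood between ependymal-like and neural progenitor-like cells by their mean. Ordered by mean, the library values overlapped between endothelial-like and border macrophage-like cells, and from ependymal-like down to excitatory neuron-like cells each class overlapped the next. Shares themselves were not tested, since an exact permutation test of 2 libraries against 2 cannot go below p = 0.3333, and the 2 genes of a pair were tested singly instead.

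Inhibitory neuron-like cells were the class in which the libraries disagreed most on this pair, with an Ldha share of 20.1% (14.4 to 27.0) in library 1 and 45.7% (39.0 to 52.5) in library 2. Ldhb stood at 256 and 251 CPM, whereas Ldha stood at 64.5 and 212 CPM. Pfkp (24.7 and 75.4 CPM), Aldoa (144 and 318 CPM) and Eno2 (3.80 and 20.9 CPM) were likewise more abundant in library 2, while Hk1 was at 38.0 and 44.0 CPM. The medians of 2200 and 2163 UMIs per cell were close. Which feature of the libraries goes with this gap was not tested.

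The 2 genes of the pair moved separately. Ldha had a mean of 51.3 CPM in neuroblast-like cells, with 52.2 and 50.4 CPM in the 2 libraries, against 261 CPM over the other classes (log2 fold change -2.17, SE 0.14, adjusted p = 7.9e-22, edgeR). Ldhb in the same cells was 402 and 387 CPM and did not pass the call. Ldha was also lower in excitatory neuron-like cells (98.3 against 256 CPM, log2 fold change -1.26) and higher in endothelial-like cells (391 and 374 CPM, log2 fold change 1.16), pericyte-like cells (409 and 394 CPM, 1.11) and microglia-like cells (286 and 295 CPM). The microglia-like value ended below the fold limit under 7 other settings.

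Ldhb was highest in astrocyte-like cells, at 959 and 762 CPM, against 274 CPM over the other classes (log2 fold change 1.69, SE 0.08, adjusted p = 6.8e-28). It was lowest, among the 10 classes of the first fit, in endothelial-like cells at 74.1 and 63.2 CPM (log2 fold change -2.04, SE 0.16, adjusted p = 1.8e-17), followed by pericyte-like cells at 123 and 138 CPM (log2 fold change -1.23, adjusted p = 1.5e-11). In endothelial-like and in pericyte-like cells the genes of the pair were thus called in opposite directions. With 4000 variable genes both pericyte-like calls fell under the fold limit (log2 fold changes of 0.84 for Ldha and -0.92 for Ldhb). The pericyte-like call of Ldha was also lost at resolution 2 (0.997), and that of Ldhb with doublets kept (-0.90). Ldha in astrocyte-like cells was 328 and 405 CPM over the class, but its clusters differed. The cluster led by Myoc and Aqp4 had Ldha at 448 and 453 CPM and Ldhb at 771 and 665 CPM, and the one led by Ttr and Crym had Ldha at 171 and 131 CPM and Ldhb at 1204 and 1307 CPM.

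**Figure D2:**
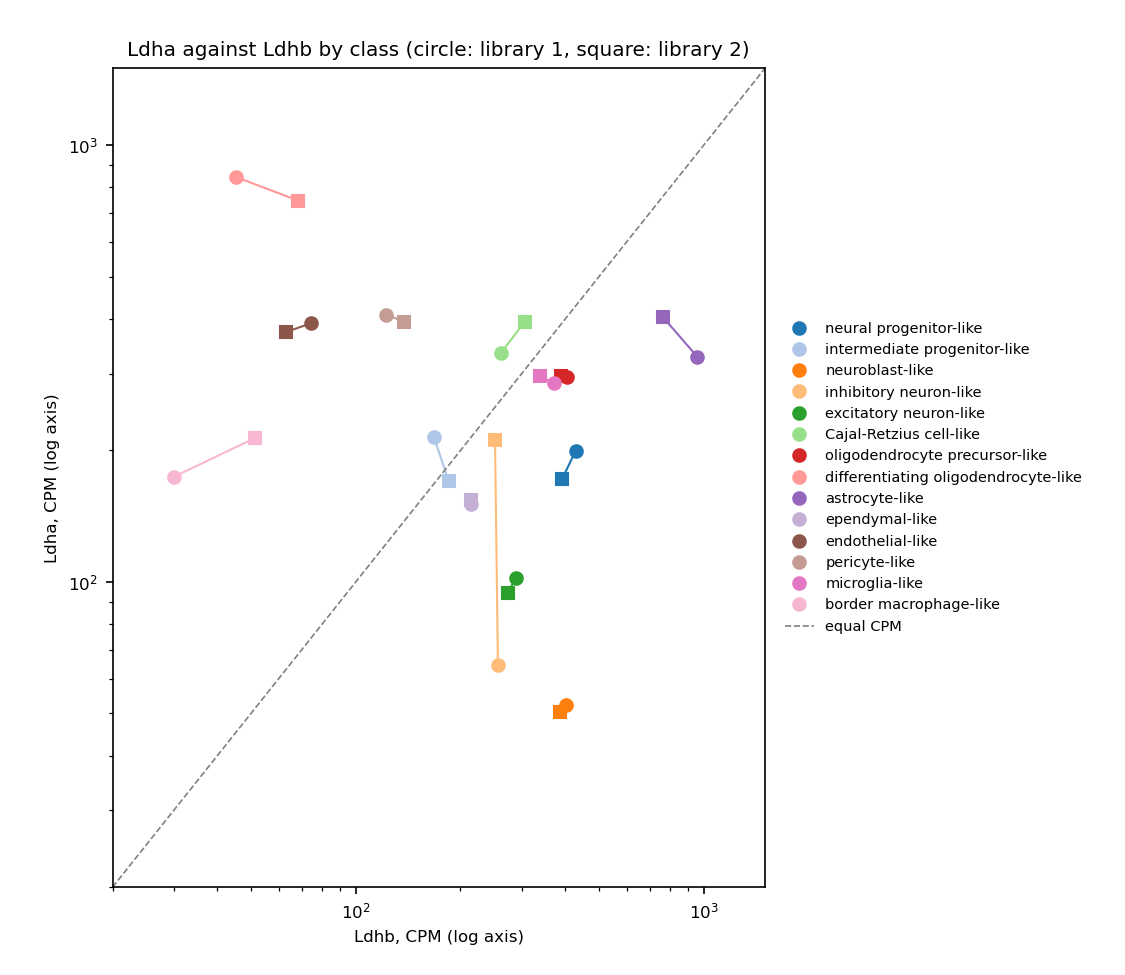
Level of Ldha (vertical, CPM, log axis) against Ldhb (horizontal, CPM, log axis) for 14 classes, with library 1 as circles, library 2 as squares and a line joining the libraries of a class. Points above the dashed line have more Ldha than Ldhb UMIs, the farthest being differentiating oligodendrocyte-like cells at 845 against 45.4 CPM in library 1, and the long vertical line belongs to inhibitory neuron-like cells, with Ldha at 64.5 and 212 CPM.

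The step from oligodendrocyte precursors to differentiating oligodendrocytes held an exchange within the lactate dehydrogenase pair. Precursor-like cells (1536 and 606 cells) had Ldha at 295 and 296 CPM and Ldhb at 404 and 388 CPM. Differentiating oligodendrocyte-like cells, which were led by the myelin gene Mbp, had Ldha at 845 and 746 CPM and Ldhb at 45.4 and 68.4 CPM. The library values of neither gene overlapped between the classes. How many of all genes are separated in this way, with 2 libraries per class, was not counted. Ldha was 3.11-fold higher (log2 fold change 1.64, SE 0.15, adjusted p = 2.5e-27) and Ldhb 7.10-fold lower (log2 fold change -2.83, SE 0.22, adjusted p = 5e-35, edgeR). The comparison rests on 26 cells in library 2 and was run in a second fit with a lower minimum of 20 cells per class, set after seeing the data.

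In the same comparison Hk2 was higher, at 22.7 and 22.8 CPM against 3.57 and 3.95 CPM in precursor-like cells (log2 fold change 2.86, SE 0.34, adjusted p = 2.9e-15). That rests on 60 and 4 UMIs in the differentiating class. Aldoa was also higher, at 654 and 604 against 214 and 193 CPM (log2 fold change 1.82, SE 0.17, adjusted p = 6.5e-25). Hk1, Pfkm, Pfkp, Aldoc, Eno1 and Eno2 were not called. So 3 members were higher and 1 lower of 10, where 16.7% of all genes were called.

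The wider pathway was described from 7 lists of 52 other genes, of which 46 were tested in this fit. For the differentiating class 15 were called higher and 1 lower, with a median log2 fold change of 0.77 against -0.091 over all genes. Of the 6 enzymes that have no paired member here, 5 were higher: Tpi1 (437 against 158 CPM, log2 fold change 1.68), Pgk1 (389 against 165 CPM, 1.37), Gpi1 (213 against 101 CPM, 1.36), Pkm (635 against 341 CPM, 1.05) and Pgam1 (604 against 353 CPM). Gapdh had 1495 against 861 CPM and missed the fold limit with a log2 fold change of 0.92. The lactate exporter gene Slc16a3 (59 and 7 UMIs, against 3 and 1 in precursors), the hypoxia-responsive genes Bnip3 (2.64) and Ankrd37 (1.81) and the pyruvate dehydrogenase kinases Pdk2 (2.34) and Pdk1 (2.21) were also higher. Epas1, which encodes the hypoxia factor HIF-2 alpha, had no UMI in the differentiating class and a mean of 10.3 CPM in precursors.

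**Figure D3:**
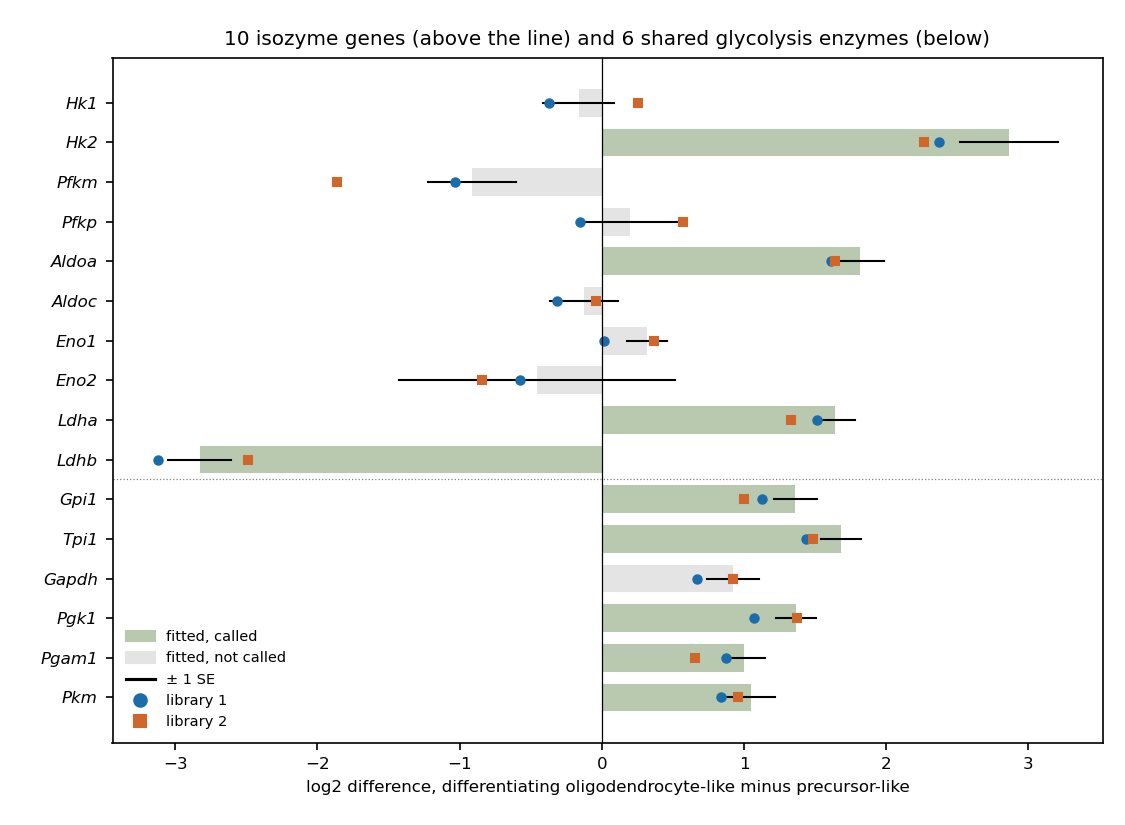
Difference between differentiating oligodendrocyte-like and precursor-like cells (horizontal, log2) for the 10 isozyme genes and, below the dotted line, 6 enzymes shared by all cells. Bars show the fitted log2 fold change with 1 SE (green where called), circles and squares the difference of log2(CPM + 1) within libraries 1 and 2. Ldha and Ldhb point in opposite directions, at 1.64 and -2.83, while Tpi1, Pgk1, Gpi1, Pkm and Pgam1 all lie to the right of 1.

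Start-site windows are shown for 3 of the 4 members called at this step, because the pair members Ldha and Ldhb moved apart while Hk2 moved with Ldha. Aldoa, also called, has its windows described but not printed. Each is the 250 bases before a RefSeq start, from RefSeq on GRCm38.p6, in the direction of the gene. Capitals mark ACGTG or its reverse complement CACGT, searched on both strands. ACGTG is a form of the core that hypoxia-inducible factors recognise and, as the palindrome CACGTG, is the core of an E-box. The other form of the hypoxia core, GCGTG, was not searched. The windows are chr7:46845554-46845803 on the plus strand for Ldha, chr6:142507958-142508207 on the minus strand for Ldhb and chr6:82774455-82774704 on the minus strand for Hk2.
Ldha: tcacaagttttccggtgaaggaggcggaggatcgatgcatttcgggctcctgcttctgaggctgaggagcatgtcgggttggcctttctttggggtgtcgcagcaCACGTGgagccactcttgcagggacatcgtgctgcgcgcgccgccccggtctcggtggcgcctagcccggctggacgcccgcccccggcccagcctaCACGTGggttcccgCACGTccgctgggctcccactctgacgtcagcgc
Ldhb: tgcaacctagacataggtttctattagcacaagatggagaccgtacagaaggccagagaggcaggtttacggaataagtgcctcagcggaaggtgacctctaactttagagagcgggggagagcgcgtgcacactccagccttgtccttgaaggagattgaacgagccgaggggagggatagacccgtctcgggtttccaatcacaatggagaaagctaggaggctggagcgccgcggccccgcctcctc
Hk2: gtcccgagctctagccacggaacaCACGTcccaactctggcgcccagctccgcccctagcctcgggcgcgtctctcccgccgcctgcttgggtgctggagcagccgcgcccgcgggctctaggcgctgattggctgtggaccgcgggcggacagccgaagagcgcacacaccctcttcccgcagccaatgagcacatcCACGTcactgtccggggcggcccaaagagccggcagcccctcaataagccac

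The Ldha window held 3 separate sites of the searched form, 2 of them palindromes that match on both strands, and the Hk2 window held 2. The Ldhb window held none of that form, but its letters include the unsearched GCGTG. The windows are therefore not read as with and without a hypoxia core. Of 32851 such windows 16.6% held at least 1 site and 1.95% held 2 or more. All 10 members matched to RefSeq windows, 20 in number, and 6 of the 20 held a site: this Ldha window, the Hk2 window, 2 of 3 windows of Aldoa and 2 of 4 windows of Pfkm. The 2 Aldoa windows overlap and hold the same site, which is thus counted in both. A further Ldha window held none. A match is a description of letters, and no binding was measured here.

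Clusters within a class also differed in the Ldha share. Astrocyte-like cells came in a cluster led by Myoc and Aqp4 with 36.7% and 40.6% and in one led by Ttr and Crym with 12.4% and 9.14%. The libraries drew different parts of their astrocyte-like cells from them (637 and 528 cells from the former, 724 and 160 from the latter), so the class values of 25.5% and 34.7% mix them in unequal parts. Among neural progenitor-like clusters, the one led by histone genes had a mean of 16.5% against 37.2% and 35.5% in the other two. Neuroblast-like clusters had 9.37%, 9.73% and 16.4%, and excitatory neuron-like clusters 29.4% and 16.3%, the higher in the cluster led by Gal and Neurod1.

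**Figure D4:**
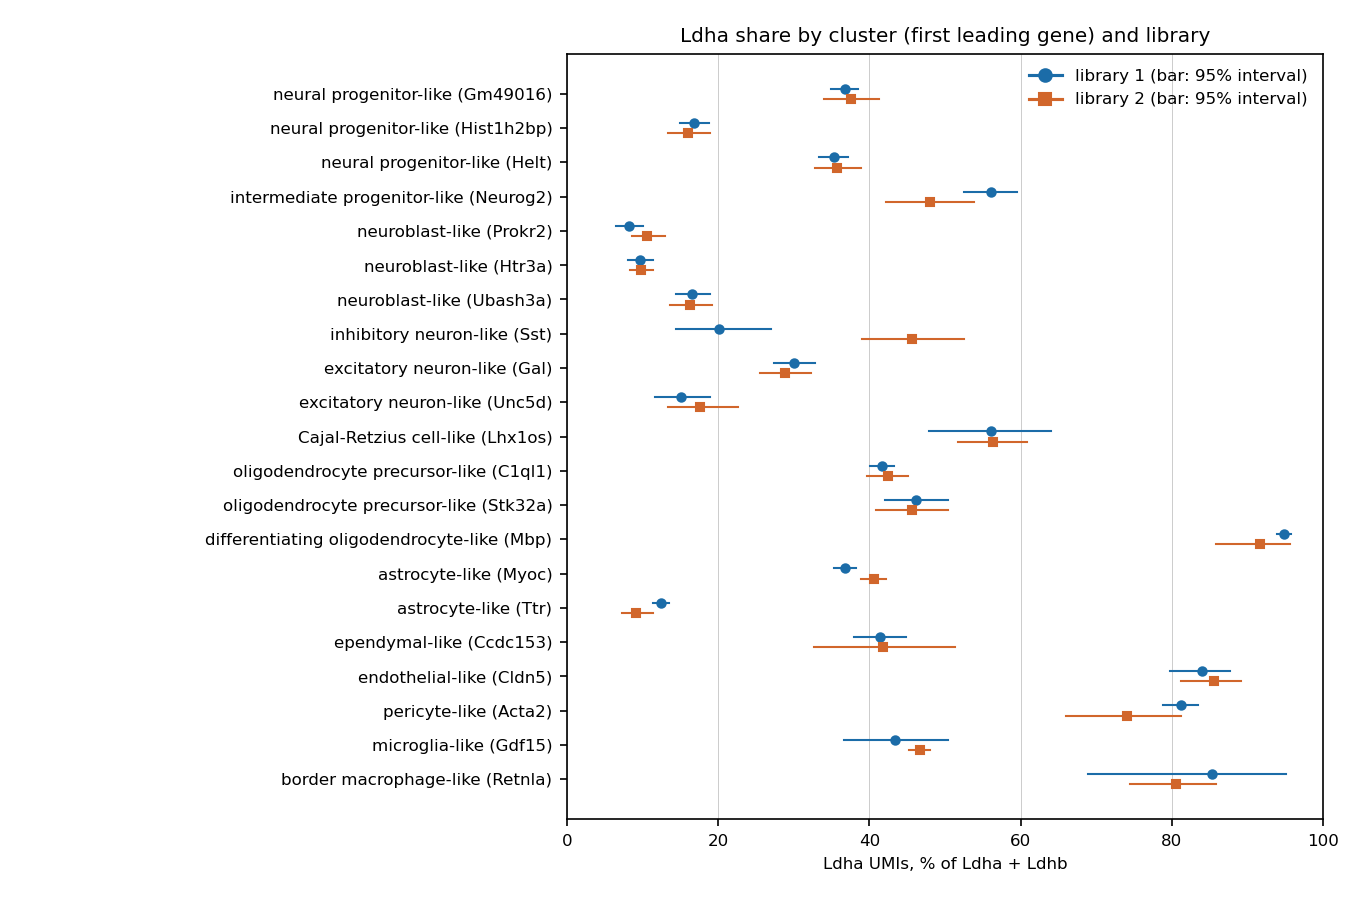
Ldha share of the UMIs of both lactate dehydrogenase genes (horizontal, percent) for each cluster with at least 20 cells in both libraries, named by class and its first leading gene, with circles for library 1, squares for library 2 and exact 95% intervals. The astrocyte-like clusters stand apart at 36.7% and 40.6% against 12.4% and 9.14%, and so does the histone-led cluster of the neural progenitor-like class.

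The aldolase pair had its lowest Aldoa share in astrocyte-like cells. Aldoa lies on chromosome 7 from 126795234 to 126800751 (minus strand, mm10), and Aldoc (ENSMUSG00000017390) on chromosome 11 from 78322968 to 78327781 (plus strand). In astrocyte-like cells Aldoc held 7753 and 3134 UMIs, or 1245 and 832 CPM, and Aldoa 536 and 494 CPM, which gave Aldoa shares of 30.1% (29.2 to 30.9) and 37.2% (35.9 to 38.6). The next lowest were intermediate progenitor-like cells with 67.4% and 73.6%, ependymal-like cells with 82.7% and 76.0%, oligodendrocyte precursor-like cells with 85.2% and 84.6% and neural progenitor-like cells with 92.9% in both libraries. The intermediate progenitor-like mean of 70.5% went to 45.1% when clusters were built from 4000 variable genes. Fibroblast-like cells had 79.1% and 83.3%. In every other class both libraries were above 94%.

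Aldoc in astrocyte-like cells had a log2 fold change of 7.24 over the other classes (SE 0.09, adjusted p = 2e-60; 1038 against 13.4 CPM). Against excitatory neuron-like cells, with 8 and 8 UMIs, it was 8.69 (SE 0.21, adjusted p = 2.9e-43). Endothelial-like cells had 0 and 1 UMI of Aldoc and inhibitory neuron-like cells 1 and 1. Intermediate progenitor-like cells (57.6 and 34.6 CPM) and oligodendrocyte precursor-like cells (37.0 and 35.2 CPM) were called higher than the mean of the others, with log2 fold changes of 2.43 and 1.86. With doublets kept neither of these classes was called, at log2 fold changes of 1.02 and 0.69. Their mean CPM lay below the mean CPM of the other classes (46.1 against 124, and 36.1 against 125), which the astrocyte-like level dominates. Neuroblast-like cells (2.54 and 3.25 CPM) and excitatory neuron-like cells (2.01 and 2.96 CPM) were called lower, with log2 fold changes of -1.97 and -2.42.

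Low Aldoc levels were set beside the 11 astrocyte markers, since free RNA from 1 source would carry its genes into other classes in 1 ratio. In oligodendrocyte precursor-like cells Aldoc stood at 2.97% and 4.23% of its astrocyte-like level, while the median marker stood at 0.287% and 0.872%. In excitatory neuron-like cells Aldoc was at 0.161% and 0.356%, below the median marker with 0.717% and 0.6003%. In microglia-like cells it was at 0.499% and 0.505%, where the median marker was at 0 and 0.258%, and 8 and 1 of the 11 markers had no UMI. The highest marker exceeded Aldoc in each of these classes. It stood at 13.8% and 15.4% in precursor-like, 10.1% and 13.9% in excitatory neuron-like and 1.91% and 1.24% in microglia-like cells.

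The 2 astrocyte-like clusters both had more Aldoc than Aldoa, with Aldoa shares of 34.5% and 41.2% in the cluster led by Myoc and Aqp4 and 25.8% and 24.6% in the one led by Ttr and Crym. The second cluster carried no astrocyte marker among its 10 leading genes and has Aldoc itself among them. Its Hk1 share was 94.9% and 91.2%, against 68.9% and 59.4% in the first, and its Eno1 share 97.0% and 93.1%, against 99.8% and 99.7%. Oligodendrocyte precursor-like clusters had mean Aldoa shares of 83.0% and 96.6%, the higher in the cluster led by Stk32a and Cntn1.

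Aldoa was high in other places. Cajal-Retzius cell-like cells, an early-born neuron of the marginal zone, held 1172 and 1299 CPM, the highest of all classes, against 136 and 159 CPM in excitatory neuron-like cells (log2 fold change 2.88, SE 0.17, adjusted p = 3.2e-59). Pericyte-like cells held 772 and 922 CPM (log2 fold change 2.09 over the other classes, SE 0.10, adjusted p = 3.7e-27). Aldoa was lowest in neuroblast-like cells (95.8 and 84.9 CPM, log2 fold change -1.40), neural progenitor-like cells (97.4 and 95.2 CPM, -1.33) and intermediate progenitor-like cells (119 and 96.6 CPM, -1.17). The library values of these classes did not overlap with those of pericyte-like or astrocyte-like cells, a separation that was not counted over all genes.

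The pericyte-like class held a cluster of 70 cells that came from library 1 alone and was led by Myo1c. Its Aldoa share was 69.1% and its Ldha share 48.3%, against 99.5% and 81.2% in library 1 of the main cluster. Without it the means over the libraries were 98.9% for Aldoa and 77.7% for Ldha, where the whole class had 97.9% ± 0.663 and 75.5% ± 2.02 (SD, n = 2).

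**Figure D5:**
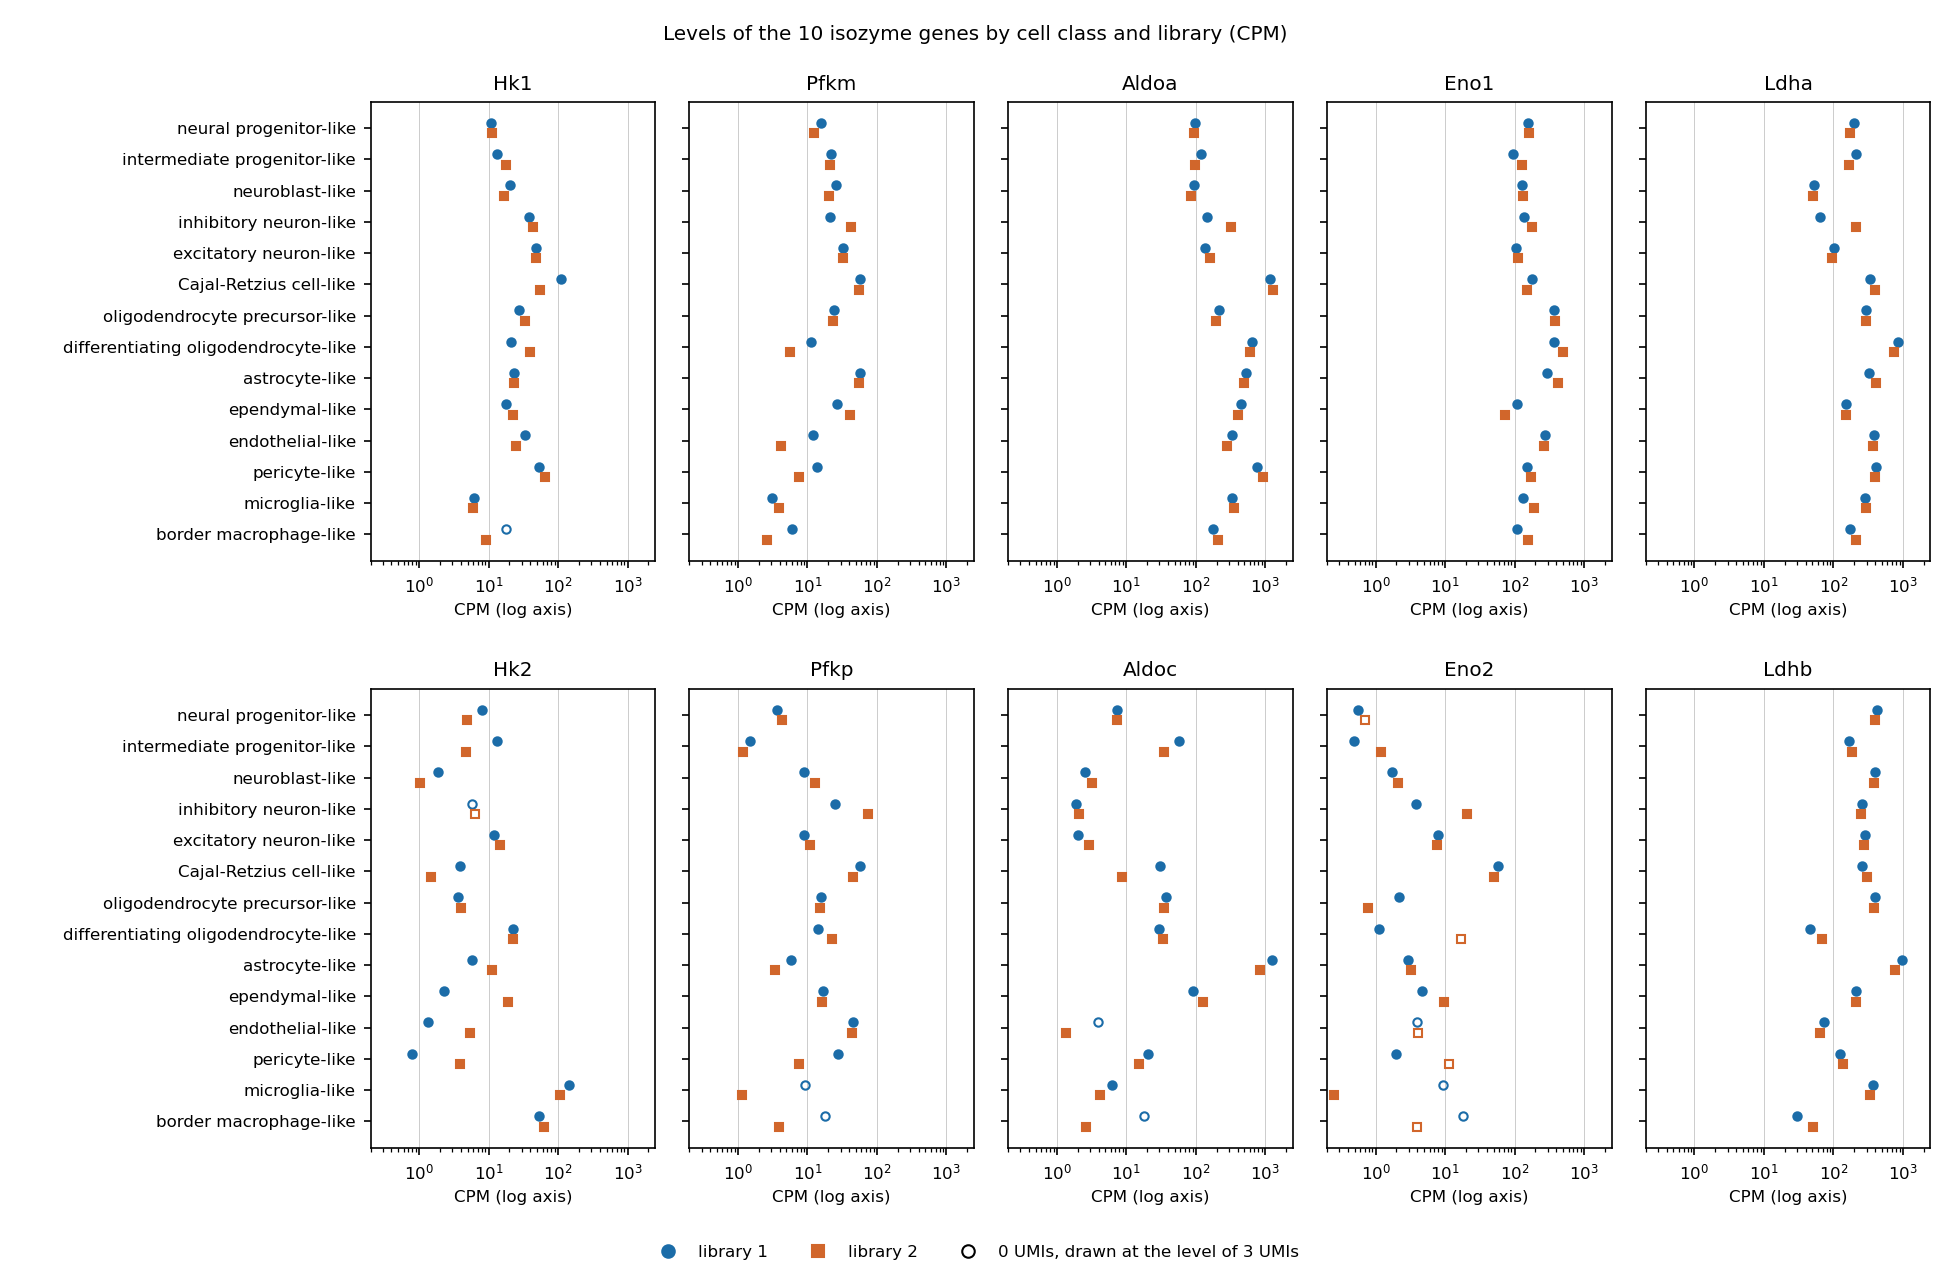
Level of each of the 10 genes (horizontal, CPM, log axis) in 14 classes, with circles for library 1 and squares for library 2, and open symbols where a gene had 0 UMIs, drawn at the level of 3 UMIs. Aldoc reaches 1245 and 832 CPM in astrocyte-like cells, Hk2 146 and 108 CPM in microglia-like cells and Eno2 57.6 and 50.1 CPM in Cajal-Retzius cell-like cells.

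The hexokinase pair had its lowest Hk1 shares in the macrophage classes. Hk1 (ENSMUSG00000037012) lies on chromosome 10 from 62268855 to 62379908 and Hk2 (ENSMUSG00000000628) on chromosome 6 from 82725025 to 82774454, both on the minus strand in mm10. Microglia-like cells held 2 and 47 UMIs of Hk1 beside 47 and 845 of Hk2, an Hk1 share of 4.08% (0.498 to 14.0) and 5.27% (3.90 to 6.95). Border macrophage-like cells had 0 of 9 UMIs and 7 of 55 from Hk1. In all other classes with at least 20 UMIs of the pair in each library, Hk1 held more than 57% in both. Below that depth, differentiating oligodendrocyte-like cells had 47.8% and 63.6%, intermediate progenitor-like cells 50% and 78.9%, ependymal-like cells 88.6% and 53.8% and pericyte-like cells 98.5% and 94.4%. Within neural progenitor-like cells the cluster led by Gm49016 had more Hk2 than Hk1, with 47 and 11 UMIs against 31 and 8.

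Hk2 was at 146 and 108 CPM in microglia-like cells, 54.0 and 63.3 CPM in border macrophage-like cells, 22.7 and 22.8 CPM in differentiating oligodendrocyte-like cells and 11.8 and 14.4 CPM in excitatory neuron-like cells. With inhibitory neuron-like cells left out of the mean, the log2 fold change in microglia-like cells was 5.11 (SE 0.17, adjusted p = 5.8e-37; 127 against 6.00 CPM). Border macrophage-like cells were lower than microglia-like cells (log2 fold change -1.08, SE 0.23, adjusted p = 0.00011), a call that fell short of the limits under 4 other settings. Neuroblast-like cells had 14 and 7 UMIs, or 1.87 and 1.04 CPM (log2 fold change -2.34, adjusted p = 4.6e-07). Inhibitory neuron-like cells had 0 UMIs in both libraries, which allows up to 5.69 and 6.28 CPM at 3 counts.

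Hk2 outside macrophages was set beside 12 microglia markers in the same way. In differentiating oligodendrocyte-like cells Hk2 stood at 15.6% and 21.2% of its microglia-like level and the median marker at 0.0978% and 0.616%. In excitatory neuron-like cells Hk2 was at 8.09% and 13.4% and the median marker at 0.0171% and 0.487%. Neuroblast-like cells were at 1.28% and 0.963%, with the median marker at 0.0315% and 0.480%. The highest marker exceeded Hk2 in neuroblast-like cells, at 9.95% and 11.1%. It lay below Hk2 in differentiating oligodendrocyte-like cells (2.34% and 6.35%) and in excitatory neuron-like cells (0.622% and 1.08%).

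Hk1 was high in neurons and mural cells. It held 48.7 and 47.7 CPM in excitatory neuron-like cells (log2 fold change 1.09 over the other classes, SE 0.12, adjusted p = 1.7e-11) and 53.1 and 65.0 CPM in pericyte-like cells (1.43, SE 0.17, adjusted p = 6.3e-11). Cajal-Retzius cell-like cells had 111 and 54.5 CPM. Among the 10 classes of the first fit it was lowest in microglia-like cells, at 6.21 and 5.98 CPM (log2 fold change -1.63, SE 0.22, adjusted p = 1.5e-09), and low in neural progenitor-like cells, at 10.7 and 11.3 CPM (-1.19). Excitatory neuron-like cells had 4.15-fold more than neural progenitor-like cells (log2 fold change 2.05, SE 0.17, adjusted p = 7.1e-17). Excitatory neuron-like clusters differed in the share: the one led by Unc5d and Neurod6 had 36 and 22 UMIs of Hk1 and 0 of Hk2, and the one led by Gal and Neurod1 had 77.1% and 73.3%.

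The phosphofructokinase pair rested on fewer UMIs. Pfkm (ENSMUSG00000033065) lies on chromosome 15 from 98092589 to 98132451 (plus strand) and Pfkp (ENSMUSG00000021196) on chromosome 13 from 6579768 to 6648777 (minus strand, mm10). Endothelial-like cells were the class with the lowest Pfkm share, 20.9% (10.0 to 36.0) and 8.57% (1.80 to 23.1), from 9 and 3 UMIs of Pfkm and 34 and 32 of Pfkp. Intermediate progenitor-like cells had the highest, 93.6% and 94.7% from 47 and 19 UMIs, followed by astrocyte-like cells with 90.9% and 94.1%. Excitatory neuron-like cells had 78.3% and 75.0%, neural progenitor-like cells 81.2% and 74.3%, neuroblast-like cells 74.4% and 61.9%, oligodendrocyte precursor-like cells 60.7% and 60.8%, Cajal-Retzius cell-like cells 50% and 54.4% and inhibitory neuron-like cells 45.8% and 35.7%. The ependymal-like class had 61.7% and 72.2%. Pericyte-like cells had 33.3% and 50%, and differentiating oligodendrocyte-like cells 44.8% and 20%, where library 2 gave only 4 and 5 UMIs of the pair. The shares of microglia-like and border macrophage-like cells rested on 1 UMI in library 1 and are not read.

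Pfkp was at 45.0 and 44.0 CPM in endothelial-like cells, against 12.7 CPM over the other classes (log2 fold change 2.73, SE 0.29, adjusted p = 2e-12), and Pfkm at 11.9 and 4.12 CPM was lower (log2 fold change -1.16, adjusted p = 0.015). In astrocyte-like cells the pair was called the other way, with Pfkm at 57.5 and 55.2 CPM (log2 fold change 1.63, SE 0.12, adjusted p = 4.9e-19) and Pfkp at 5.78 and 3.45 CPM (log2 fold change -1.10, adjusted p = 0.00049). That last call missed the limits under 5 other settings, with a log2 fold change of -0.24 at the finest clustering. Pfkp was also high in inhibitory neuron-like cells, at 24.7 and 75.4 CPM (log2 fold change 2.55, SE 0.33, adjusted p = 2.6e-09), and in Cajal-Retzius cell-like cells, at 57.6 and 45.6 CPM. Intermediate progenitor-like cells held 3 and 1 UMIs of Pfkp and were called lower. This call, and the lower Pfkp calls in microglia-like and neural progenitor-like cells, were lost at resolution 2 and with doublets kept. Both genes were low in microglia-like cells, with 1 and 31 UMIs of Pfkm and 0 and 9 of Pfkp. Pfkl, the liver-type subunit that is no member of the pair, held 2731 UMIs over both libraries, more than Pfkm and Pfkp each, so the pair does not cover the whole step.

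The enolase pair hardly moved as a share. Eno1 (ENSMUSG00000063524) lies on chromosome 4 from 150236721 to 150248879 (plus strand) and Eno2 (ENSMUSG00000004267) on chromosome 6 from 124760053 to 124769673 (minus strand, mm10). In all glial, vascular, macrophage and progenitor classes except ependymal-like cells, Eno1 gave over 98% of the UMIs in both libraries. The share was 93.0% (90.2 to 95.1) and 93.6% (90.3 to 96.0) in excitatory neuron-like cells, 97.3% and 89.6% in inhibitory neuron-like cells and 95.9% and 88.5% in ependymal-like cells. Cajal-Retzius cell-like cells had the lowest, 75.4% (62.7 to 85.5) and 74.8% (66.6 to 81.9).

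Eno2 was sparse everywhere, with 131 and 142 UMIs in the whole libraries. Its level was 57.6 and 50.1 CPM in Cajal-Retzius cell-like cells and 8.03 and 7.77 CPM in excitatory neuron-like cells (log2 fold change between them 2.53, SE 0.40, adjusted p = 3.4e-09). With endothelial-like cells left out of the mean, excitatory neuron-like cells were higher than the rest (log2 fold change 2.36, SE 0.37, adjusted p = 2.4e-07), as were inhibitory neuron-like cells (2.94, SE 0.67, adjusted p = 0.00044), on 2 and 10 UMIs. Astrocyte-like cells had 2.89 and 3.18 CPM, neuroblast-like cells 1.74 and 2.07 CPM and neural progenitor-like cells 0.557 and 0 CPM. Endothelial-like cells had 0 UMIs, which allows up to 3.97 and 4.12 CPM.

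Eno1 differed more in level than in share. It was highest in differentiating oligodendrocyte-like cells (374 and 496 CPM), oligodendrocyte precursor-like cells (370 and 384 CPM) and astrocyte-like cells (294 and 419 CPM), 3 classes whose values overlapped. Precursor-like cells were called higher than the other classes (log2 fold change 1.02, SE 0.09, adjusted p = 3e-15), a call that fell under the fold limit in 3 other settings. Astrocyte-like cells exceeded excitatory neuron-like cells (106 and 113 CPM) by a log2 fold change of 1.63 (SE 0.14, adjusted p = 2.1e-16). The astrocyte-like values mix clusters that differ, in unequal parts. The cluster led by Myoc and Aqp4 held 1320 and 1484 UMIs of Eno1 in 637 and 528 cells. The one led by Ttr and Crym held 509 and 95 UMIs in 724 and 160 cells.

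Read by class, the members called against the mean of the other classes were as follows, beside the share of all genes called. Astrocyte-like cells had 5 of 10 higher and 1 lower against 21.8% of genes, and microglia-like cells 3 and 3 against 34.1%. Endothelial-like cells had 2 higher and 3 lower against 28.5%, pericyte-like cells 3 and 1 against 22.4%, excitatory neuron-like cells 3 and 2 against 21.7% and inhibitory neuron-like cells 2 and 2 against 17.7%. Oligodendrocyte precursor-like cells had 2 higher and none lower against 18.4%. Neural progenitor-like cells had 3 lower against 14.9%, neuroblast-like cells 3 lower against 19.6% and intermediate progenitor-like cells 1 higher and 2 lower against 15.4%. No member was called higher in neural progenitor-like or neuroblast-like cells. These counts keep every class in the mean. With the class at 0 left out, Eno2 in astrocyte-like cells was no longer called (log2 fold change 0.73, adjusted p = 0.14, edgeR), while Hk2 was called lower in neuroblast-like, pericyte-like and oligodendrocyte precursor-like cells and Eno2 in microglia-like and neural progenitor-like cells. The call of Hk2 as higher in excitatory neuron-like cells held, although its mean of 13.1 CPM lay below the 20.2 CPM of the other classes, which the microglia-like level dominates.

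Neuroblast-like cells were set against neural progenitor-like cells, which included a cluster led by histone genes. Of the 10 members, Ldha (51.3 against 186 CPM, log2 fold change -1.83, SE 0.16, adjusted p = 1.5e-15), Hk2 (1.45 against 6.46 CPM, -2.19) and Aldoc (2.90 against 7.36 CPM, -1.26) were lower. Pfkp (10.8 against 3.93 CPM, 1.48) and Eno2 (1.91 against 0.278 CPM, 2.19) were higher, 5 of 10 in all where 20.6% of genes were called. Eno2 had 6 and 0 UMIs in neural progenitor-like cells. Under stricter cell limits Pfkp (log2 fold change 0.79) and Eno2 (1.48) were not called. Aldoc fell under the fold limit at resolution 0.5 (-0.98). The progenitor clusters differed, and the one led by histone genes had Ldha at 61.5 and 55.4 CPM and Hk2 at 1.94 and 2.45 CPM. Its Ldha lay within the 33.8 to 83.6 CPM of the neuroblast-like clusters, while the other progenitor clusters had 252 to 311 CPM. Of 42 other pathway genes, 4 were higher and 6 lower, the latter led by Pdk4, Egln3 and Slc16a1. Their median log2 fold change was -0.141 against -0.001 over all genes.

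Excitatory neuron-like cells had 4 members higher (Eno2, Hk1, Pfkp and Pfkm) and 2 lower (Aldoc and Ldha) than neural progenitor-like cells, where 26.8% of genes were called. Ldha was at 98.3 against 186 CPM, a log2 fold change of -1.01 that fell under the limit in 5 other settings. Pfkm was at 32.4 against 13.9 CPM (log2 fold change 1.09, adjusted p = 4.9e-07, edgeR). It fell under the fold limit at resolution 2 (0.85), under stricter cell limits (0.76) and with doublets kept (0.78). Of the other genes 8 were higher and 6 lower, and the shared enzymes Gapdh, Pgk1 and Pgam1 were among those lower.

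Astrocyte-like cells exceeded excitatory neuron-like cells in 5 members (Aldoc, Ldha, Aldoa, Eno1 and Ldhb) and were lower in 3 (Eno2, Hk1 and Pfkp), where 34.8% of genes were called. Each of the 3 lower calls was lost under another setting. Eno2 was lost with DESeq2's Wald test and Hk1 with doublets kept (log2 fold change -0.93). Pfkp was lost under both of these settings and with DESeq2's size factors. Over the whole class the log2 fold changes were 1.83 (SE 0.16) for Ldha and 1.55 (SE 0.13) for Ldhb. They average clusters that differ, since Ldha stood at 448 and 453 CPM in the cluster led by Myoc and at 171 and 131 CPM in the one led by Ttr. Of 42 other pathway genes 15 were higher and 4 lower, with a median log2 fold change of 0.829 against 0.017 over all genes. All 4 glycogen genes tested were among the 15, including brain glycogen phosphorylase Pygb (128 against 13.6 CPM, log2 fold change 3.19, adjusted p = 2.2e-26). Against neural progenitor-like cells astrocyte-like cells had 4 members higher (Aldoc, Eno2, Aldoa and Pfkm) and none lower, where 29.8% of genes were called. Of the 18 and 12 UMIs of Eno2 in astrocyte-like cells, 16 and 7 lay in the cluster led by Ttr and Crym. The cluster led by Myoc and Aqp4 had 0.567 and 1.56 CPM of Eno2, against 0.557 and 0 in neural progenitor-like cells. Aldoa was at 515 CPM over the astrocyte-like class against 96.3 CPM (log2 fold change 2.27, SE 0.15).

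Microglia-like cells against astrocyte-like cells had Hk2 higher (log2 fold change 4.41, SE 0.21, adjusted p = 4.2e-28) and Aldoc, Pfkm, Eno2, Pfkp and Hk1 lower, 6 of 10 where 41.7% of genes were called. Hk3, a hexokinase outside the pair, had 13 and 353 UMIs in microglia-like cells and 0 and 1 in astrocyte-like cells, and 554 of its 580 UMIs lay in library 2, which held most microglia-like cells. Endothelial-like cells had Pfkp higher and Aldoc, Ldhb and Pfkm lower than astrocyte-like cells, where 32.1% of genes were called. Ldhb was at 68.7 against 860 CPM (log2 fold change -3.36, SE 0.17, adjusted p = 6.1e-26). In this comparison the lactate carrier Slc16a1 (1344 against 25.1 CPM, log2 fold change 6.02), its partner Bsg (13826 against 498 CPM, 5.08) and the glucose carrier Slc2a1 (463 against 19.1 CPM, 4.89) were all higher.

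Further comparisons were added after seeing the data, in the second fit. Border macrophage-like cells had 5 and 39 UMIs of Ldhb, a mean of 40.7 CPM, against 372 and 337 CPM in microglia-like cells (log2 fold change -3.03, SE 0.26, adjusted p = 1.9e-27). With Hk2, 2 members were lower and none higher, where 6.33% of genes were called. Ldha, at 174 and 214 CPM against 286 and 295 CPM, was not called. Of 46 other genes 10 were lower, among them Pfkfb3, Hif1a, Pkm and Pfkl, and 1 (Slc16a7) was higher.

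Cajal-Retzius cell-like cells had 5 members higher than excitatory neuron-like cells (Aldoa, Aldoc, Eno2, Pfkp and Ldha) and Hk2 lower, on 1 and 1 UMIs, where 20.1% of genes were called. Ldha was at 334 and 395 CPM against 102 and 94.3 CPM (log2 fold change 1.73, SE 0.17, adjusted p = 2.5e-21). Aldoc rested on 8 and 6 UMIs. Of the other genes 12 were higher and 2 lower, led among the shared enzymes by Gpi1 (489 against 58.7 CPM, log2 fold change 2.85, adjusted p = 3.6e-66).

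Ependymal-like cells had 5 members lower than astrocyte-like cells (Aldoc, Ldhb, Eno1, Ldha and Pfkm) and Pfkp higher, where 34.1% of genes were called. The Pfkm call fell under the fold limit with DESeq2's Wald test, its size factors, 4000 variable genes and stricter cell limits. Aldoc was at 92.5 and 128 CPM, 12.1-fold below astrocyte-like cells (log2 fold change -3.59, SE 0.16, adjusted p = 8.2e-109). Ldhb was at 214 and 215 CPM (log2 fold change -2.17) and Eno1 at 109 and 73.7 CPM (-1.89). Further isozymes of the pathway were higher there: the hexokinase-domain gene Hkdc1, with 45 and 6 UMIs against 1 and 0, the muscle enolase gene Eno3, with 35 and 5 UMIs against 42 and 16 in the larger astrocyte-like class (log2 fold change 1.23, adjusted p = 0.0063), and the liver pyruvate kinase gene Pklr, with 28 and 3 UMIs against 1 and 0.

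The libraries ordered the classes alike for most pairs. Spearman's rho of the shares was 0.964 for the aldolases, 0.939 for the phosphofructokinases, 0.879 for the hexokinases, 0.842 for the lactate dehydrogenases and 0.732 for the enolases. For the phosphofructokinases, this and the next value include the microglia-like share that rests on 1 UMI in library 1. Over the 10 classes of the first fit, the shares of the libraries had a Pearson r of 0.998 for the aldolases, 0.926 for the lactate dehydrogenases, 0.918 for the phosphofructokinases, 0.911 for the hexokinases and 0.695 for the enolases, as a description over classes that share their libraries. The largest gaps were 28.9 percentage points for Hk1 in intermediate progenitor-like cells, on 54 and 19 UMIs, and 25.6 for Ldha in inhibitory neuron-like cells. Over the 20 class and library values, the genes most like a member in log2(CPM + 1) were Tmem14c for Ldha (r = 0.951), Rnf180 for Ldhb (0.867), Aldh7a1 for Aldoc (0.899), Tmem30a for Aldoa (0.912) and Npc2 for Hk2 (0.87). They were Map4k3 for Hk1 (0.868), Kif1b for Pfkm (0.941), Dctn6 for Pfkp (0.909), Rgcc for Eno1 (0.856) and Vamp2, a synaptic vesicle gene, for Eno2 (0.886).

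Copies and neighbours can share reads with some members. Among the near-identical copies listed, Eno1b held 375 UMIs, Ldhal6b 16 and Aldoart2 12 over both libraries. How reads were split between such copies is not given in the sources used here. Hk1 and Hk2 overlap antisense genes (Hk1os and Gm17034), and Pfkm, Pfkp and Aldoa overlap Senp1, Pitrm1 and Fam57b on the other strand. Pfkm also overlaps Gm26513 on its own strand.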

How the data were processed

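Both libraries were sequenced from Chromium 3' version 3 preparations, per the labels' protocols. The deposited counts are whole UMIs per gene and barcode, made by the authors with Cell Ranger 6.1.2 on mm10 (submitters' processing notes). Which annotation release they used is not given in the sources used here, and gene bounds come from GENCODE M21 by identifier. The 10 members and all lists were chosen with earlier results of these data known.

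Barcodes were kept from 500 genes up and with no more than 10% mitochondrial UMIs (12618 and 14965). Doublet scores removed 626 in library 1, by an automatic threshold. In library 2 the threshold marked 0, so the 897 highest scores (6%) were removed. Cells were clustered with scanpy 1.11.5 (2000 variable genes, 30 components, 15 neighbours, Leiden resolution 1), without the members, their pathway genes, their copies, ribosomal or mitochondrial genes. Of 26 clusters, 23 were named from 23 marker lists by rules partly set after seeing the data. Sums of UMIs for each class in each library were fitted with edgeR 4.0.16 (R 4.3.3; TMM, filterByExpr, class plus library). The first fit held the 10 classes of 50 or more cells per library (9 residual degrees of freedom). The second held 14 with at least 20, in place of a planned minimum of 40 that 1 class missed. Clustering genes and markers were not tested. On data simulated for astrocyte-like cells against the others (12680 genes), 33.9%, 95.2% and 96.6% of genes changed by 1, 2 and 3 log2 units were called, and 0 unchanged ones. The simulation used 1 dispersion for all genes, no library effect and no other class effect. Its rates are therefore not error rates of the real comparisons.

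Shares have exact Clopper-Pearson intervals (95%), and a count of 0 was given a floor of 3 counts. Of the 52 other pathway genes, the text names up to 6 per comparison by size of change. The shared enzymes named besides, in the oligodendrocyte and excitatory neuron comparisons, were chosen after their values were seen. The genes most like a member were taken among tested genes with a mean of at least 20 CPM. Alternatives covered the clustering, the cell limits, doublets, DESeq2 1.42.0, scaling, filters, the block, thinning to 2000 UMIs and each library alone. The library block joins classes of 1 suspension. Over 45 pairs of classes, deviations within a library had a median correlation of 0.027 (-0.121 to 0.275).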

Additional observations from a re-analysis of the deposited data

Results flagged for a closer look

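Clusters that the naming rules left unnamed held cells of library 2 almost alone and enter no comparison above. Under these rules a cluster that met a marker list could also stay unnamed for low UMIs. This held when its UMIs per cell were under 0.6 of the library median and over 95% of its cells came from 1 library. Globin and neutrophil genes, which led unnamed clusters, were on the marker lists. The unnamed clusters appear here because members had UMIs in these cells, which the comparisons did not use. The cluster led by Gm10800 (58 and 2471 cells) had shares in library 2 of 31.3% for Hk1, 69.0% for Pfkm, 76.2% for Aldoa, 96.9% for Eno1 and 38.7% for Ldha. The cluster led by the globin gene Hbb-bt (4 and 2394 cells) had 26.9% for Hk1, 74.4% for Pfkm, 75.5% for Aldoa, 99.1% for Eno1 and 40.4% for Ldha. The Hk1 shares rest on 47 of 150 and 42 of 156 UMIs of the pair.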

How the results depend on the processing

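Of 92 member calls, 64 held under all alternative settings run on them and 0 changed sign. DESeq2's Wald test held 83, its size factors in edgeR 86, stricter cell limits 84, keeping doublets 79, resolution 0.5 held 82 with 6 lost, resolution 2 held 81 and 4000 variable genes held 78 with 10 lost. Without the replicate block, and without the filter on low counts, 92 of 92 held. Size factors moved the median over all genes by up to -0.258 (microglia-like against astrocyte-like). Member calls in astrocyte-like against neural progenitor-like cells went from 4 to 7 with the Wald test and with size factors, and to 8 with no limit on the fold change. In border macrophage-like against microglia-like cells they went from 2 to 1 with the Wald test, size factors, resolution 0.5 and 4000 variable genes, and to 4 with no limit on the fold. With no limit, the calls against the mean of the others went from 41 to 65 (from 35 to 59 for members with UMIs in every class), and those in excitatory neuron-like against neural progenitor-like cells from 6 to 10.

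The gap between the highest and lowest class was taken over classes of the first fit with at least 20 UMIs of the pair in each library. This left out pericyte-like and intermediate progenitor-like cells for Hk1 and Pfkm, and also microglia-like cells for Pfkm. Between class means the gap was 95.3 percentage points for Hk1, and 89.4 at resolution 0.5, 89.6 with 4000 variable genes and 92.1 with doublets kept. For Ldha it was 73.3, and 71.95 with 4000 variable genes, 69.7 under stricter limits and 71.96 with doublets kept. For Eno1 it was 6.75, and 7.05 to 10.4 over single libraries. Single libraries gave 94.7 to 95.9 for Hk1, 69.9 to 85.5 for Pfkm, 62.3 to 69.9 for Aldoa and 72.5 to 74.0 for Ldha. The Aldoa share of intermediate progenitor-like cells went from 70.5% to 45.1% with 4000 variable genes, 56.4% under stricter limits and 57.1% at resolution 2. That of neural progenitor-like cells went from 92.9% to 78.8% with doublets kept and 78.4% at resolution 2. The Ldha share of inhibitory neuron-like cells went from 32.9% to 20.7% with doublets kept and 22.5% after thinning, and was 20.1% and 45.7% in the single libraries. The causes were not tested. Tests have no value for 1 library, since no residual degrees of freedom remain, and the fit at 40 cells was not run. Low depth limits values that rest on few UMIs, among them those of Pfkm, Pfkp, Hk2 and Eno2 in small classes.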

Other observations

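A further unnamed cluster, led by the neutrophil genes S100a8 and S100a9, held 15 and 295 cells. In library 2 Hk1 gave 6 UMIs beside 28 of Hk2, a share of 17.6% (exact 95% interval 6.76 to 34.5), and Ldha gave 219 beside 141 of Ldhb, or 60.8% (55.6 to 65.9). Aldoa had 316 UMIs and Aldoc 1. Eno1 had 184 UMIs and Eno2 0. Pfkm had 4 UMIs and Pfkp 13, a share of 23.5% (6.81 to 49.9).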
